A study of Mus musculus with 5 samples.

Results

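Caveolae are small flask-shaped pits of the plasma membrane that buffer membrane tension and gather receptors, lipids and signalling enzymes. Their inner coat is built by the caveolins, hairpin membrane proteins that bind cholesterol, and by the cavins, cytosolic proteins that assemble on a caveolin-rich membrane and stabilise its curvature. Adipocytes, endothelial cells, smooth muscle and fibroblasts are known for many caveolae. The 5 genes described here are Cav1, Cav2, Cavin1, Cavin2 and Cavin3, taken by gene symbol from a table of 53927 genes. They are the non-muscle coat genes, and all 5 were among the 14884 genes with enough signal to test. The set was chosen by the low CPM of Cavin2 in the knockout, seen in an earlier look at the same libraries, and the question was whether the other coat genes share it. The knockout-against-wild-type values of Cavin2 are therefore a description without a test.

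The libraries came from primary nephron progenitor cells of C57BL/6J mouse embryos, the kidney precursors that renew themselves and form nephrons, kept in a culture built to maintain that state and passaged 1 time. The wild type (WT, Dis3l2+/+) has 2 libraries and the knockout (KO, Dis3l2-/-) has 3. Dis3l2 encodes an exonuclease that digests RNA carrying a 3' uridine tail. The labels do not state the embryonic age, the deleted part of the gene, or whether each library has its own embryo or culture. P-values therefore reflect how far these libraries differ, which can include technical variation.

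Levels are CPM, the authors' read counts scaled to an effective library size, and values are listed in the order WT replicates 1 and 2, then KO replicates 1, 2 and 3. The steps between low values put the depth at 19.6 to 49.3 M assigned reads per library, with KO replicate 1 the deepest and KO replicate 3 the shallowest. Dis3l2 stood at 16.04 and 12.2 CPM (WT) and 6.50, 4.93 and 4.70 CPM (KO). Every KO library was below both WT libraries, as for 6.98% of all genes tested. The limma fit did not call Dis3l2 (log2 fold change -1.24, adjusted p = 0.954, limma with Benjamini-Hochberg adjustment over all genes). The authors' deposited table lists Dis3l2 at an FDR of 0.00855. Reads remain in KO, and the labels do not say which exons they could come from. Progenitor markers were detected in every library, with Six2 at 18.6 to 31.9 CPM, Eya1 at 168 to 274 CPM and Itga8 at 356 to 471 CPM, while Pax2 stayed between 0.05 and 0.66 CPM, too low to test. Cited1, a marker of the uncommitted progenitor, ran from 1.40 to 17.05 CPM. Eya1, Itga8, Pax2, Cited1 and Sall1 are named as markers of the labelled cell type, after their values were seen. Ddx3y, a Y-linked gene, was above Xist in WT replicate 1 and KO replicate 3, and Xist was above Ddx3y in the other 3 libraries.

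The promoters of the coat genes are shown because they differ in base composition between Cavin2 and the others. RefSeq windows (GRCm38.p6) were found for 4 of the 5 genes, each from 250 bases before to 50 bases after an annotated start, printed 5' to 3' on the gene's strand. Capitals mark matches, on either strand, to the CCAAT box (CCAAT), the GC box (GGGCGG), the TATA box (TATAAA), the TEAD site (CATTCC), the nuclear receptor hexamer (AGGTCA) or the CArG box. The windows are chr1:51288876-51289175 (plus strand) for Cavin2, chr11:100970568-100970867 (minus strand) for Cavin1, chr6:17306085-17306384 (plus strand) for Cav1 and chr6:17280935-17281234 (plus strand) for Cav2.
Cavin2: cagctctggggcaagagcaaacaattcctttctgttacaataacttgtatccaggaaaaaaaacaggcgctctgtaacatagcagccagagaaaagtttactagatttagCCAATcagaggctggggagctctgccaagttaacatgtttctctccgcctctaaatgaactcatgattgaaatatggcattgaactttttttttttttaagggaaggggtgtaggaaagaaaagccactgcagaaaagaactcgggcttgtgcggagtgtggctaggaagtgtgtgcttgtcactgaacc
Cavin1: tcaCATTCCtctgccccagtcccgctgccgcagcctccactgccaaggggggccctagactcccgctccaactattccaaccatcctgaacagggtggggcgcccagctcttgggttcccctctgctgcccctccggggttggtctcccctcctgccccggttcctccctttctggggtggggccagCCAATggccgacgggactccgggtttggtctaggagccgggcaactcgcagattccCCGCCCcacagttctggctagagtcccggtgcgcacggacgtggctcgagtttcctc
Cav1: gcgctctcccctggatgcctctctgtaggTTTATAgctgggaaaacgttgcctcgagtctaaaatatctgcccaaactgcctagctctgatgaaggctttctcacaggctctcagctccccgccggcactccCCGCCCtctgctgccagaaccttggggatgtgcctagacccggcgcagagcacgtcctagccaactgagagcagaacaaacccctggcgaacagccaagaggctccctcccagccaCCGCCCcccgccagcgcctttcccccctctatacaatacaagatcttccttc
Cav2: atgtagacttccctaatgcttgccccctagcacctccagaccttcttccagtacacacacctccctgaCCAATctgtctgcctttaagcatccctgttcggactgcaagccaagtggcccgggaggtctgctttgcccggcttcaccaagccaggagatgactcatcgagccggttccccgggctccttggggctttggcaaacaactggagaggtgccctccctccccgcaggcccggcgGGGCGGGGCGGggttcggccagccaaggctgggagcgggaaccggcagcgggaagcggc
G and C made up 43.3% of the Cavin2 window, against 66.7% for Cavin1, 59.3% for Cav1 and 64.3% for Cav2. Over 32851 promoter windows of the same length the median was 52.7%, and 18.2% of windows were at or below the value of Cavin2. The Cavin2 window held a single match, a CCAAT box, which 37.4% of all windows hold. The GC box, held by 35.7% of all windows, occurred in the Cavin1, Cav1 and Cav2 windows, with 2 matches that share a base in Cav2 and 2 separate matches in Cav1. The Cavin1 window also held a CCAAT box and a TEAD site (14.7% of all windows), the Cav2 window a CCAAT box, and the Cav1 window a TATA box letter match on the opposite strand (13.6% of all windows), far upstream of the start. The hexamer, in 16.3% of all windows, and the CArG box, in 1.63%, were not in these 4 windows. Cav1 and Cavin1 have 2 annotated starts each, and the first window listed is shown. The second Cav1 window, with 62.3% G and C, held no match and so no GC box. The second Cavin1 window held the same 3 motifs as the first.

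Cavin2, also known for binding phosphatidylserine and protein kinase C, was low in every KO library. Cavin2 (ENSMUSG00000045954.7, chromosome 1, 51289126 to 51302960, plus strand, GRCm38) stood at 2.04 and 2.21 CPM (WT) and 0.55, 0.75 and 0.71 CPM (KO). The KO libraries lay close together and all below both WT libraries. These levels rest on 44 and 63 reads in WT and on 26, 24 and 15 reads in KO. The 95% Poisson intervals, which cover counting error only, reached up to 1.16 CPM in KO and down to 1.48 CPM in WT. The means were 2.12 ± 0.12 CPM in WT (SD, n = 2) and 0.67 ± 0.11 CPM in KO (SD, n = 3), a KO over WT ratio of 0.315. On the log2(CPM + 1) scale of the fit the KO over WT fold change was -0.91 (standard error 0.15), a scale that shrinks differences between low levels. The authors' deposited table lists Cavin2 at a log2 fold change of -1.68 and an FDR of 0.0627, at rank 20 by p. In the authors' deposited table none of the 5 members, and 0.0315% of all listed genes, had an FDR under 0.05.

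Cavin1, the cavin without which caveolae do not form, had the highest level of the family and was not lower in KO as a group. Cavin1 (ENSMUSG00000004044.9, chromosome 11, 100956733 to 100970887, minus strand) stood at 71.4 and 150 CPM (WT) and 74.5, 177 and 132 CPM (KO). WT replicate 1 and KO replicate 1 were low and the other 3 libraries high, so the genotypes overlapped across nearly their whole range. With 1540 reads or more in each library, counting error is small beside the 2.11-fold gap between the WT libraries. The means were 111 ± 55.9 CPM in WT and 128 ± 51.2 CPM in KO (SD, n = 2 and 3). The log2 fold change was 0.21 with a 95% interval from -0.79 to 1.22 (adjusted p = 1.00, limma with Benjamini-Hochberg adjustment over all genes).

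Cavin3, a cavin known as a binding partner of protein kinase C delta, was low in the same libraries as Cavin1. Cavin3 (ENSMUSG00000037060.3, chromosome 7, 105480083 to 105482300, minus strand) stood at 2.27 and 4.32 CPM (WT) and 2.32, 5.58 and 4.42 CPM (KO). The genotypes overlapped. The log2 fold change was 0.24 with an interval from -0.58 to 1.05 (adjusted p = 1.00, limma). The Cavin1 to Cavin3 log2 ratio stayed between 4.90 and 5.12 in all 5 libraries, while the level of either gene varied more than 2-fold (2.47-fold for Cavin1 and 2.46-fold for Cavin3).

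The caveolins lie side by side on chromosome 6, 17.2 kb apart, and were high in 2 of the 3 KO libraries. Cav1, the principal membrane protein of non-muscle caveolae (ENSMUSG00000007655.16, 17306335 to 17341452, plus strand), stood at 1.39 and 1.86 CPM (WT) and 0.68, 3.31 and 3.62 CPM (KO). KO replicate 1 was below both WT libraries and the other KO libraries above both. Cav2, which joins Cav1 in mixed oligomers (ENSMUSG00000000058.6, 17281185 to 17289115, plus strand), stood at 2.74 and 3.79 CPM (WT) and 1.68, 4.83 and 6.63 CPM (KO). It took the same order of libraries as Cav1, with KO replicate 1 lowest and KO replicate 3 highest.

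The KO spread of the caveolins exceeded the difference between the genotypes. Cav1 averaged 1.63 ± 0.33 CPM in WT and 2.54 ± 1.62 CPM in KO (SD, n = 2 and 3), with a log2 fold change of 0.30 and an interval from -0.73 to 1.34 (adjusted p = 1.00, limma). Cav2 averaged 3.27 ± 0.74 CPM in WT and 4.38 ± 2.51 CPM in KO, with a log2 fold change of 0.22 and an interval from -0.80 to 1.24 (adjusted p = 1.00, limma). KO replicate 1 decided these values: without it the log2 fold change was 0.77 for Cav1 (adjusted p = 0.494, limma) and 0.66 for Cav2 (adjusted p = 0.845, limma). Neither passed with or without it.

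**Figure D1:**
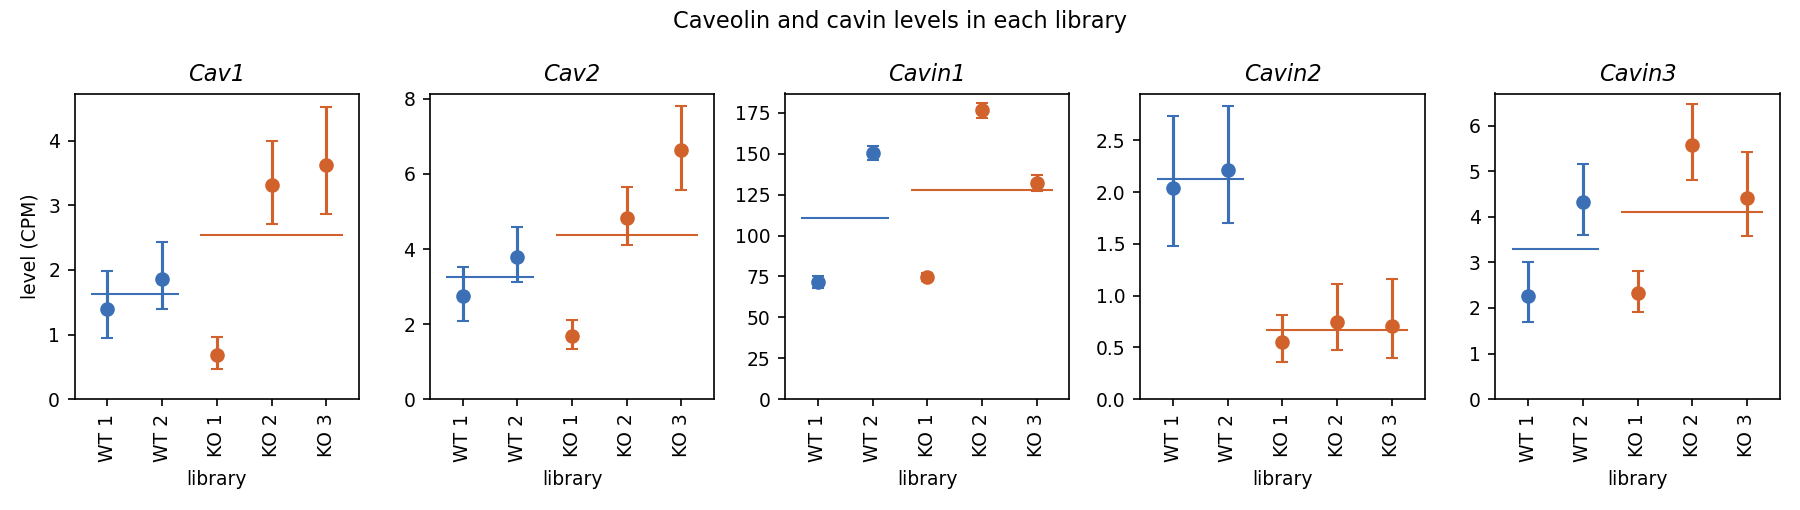
Level in CPM (vertical axis, from 0) of each gene in the 2 WT libraries (blue) and the 3 KO libraries (orange). Bars are 95% Poisson intervals for counting error and horizontal lines are group means. The genotypes are apart for Cavin2 (2.04 and 2.21 against 0.55 to 0.75 CPM) and overlap for the other 4 genes.

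A low level in all 3 KO libraries was therefore not seen in the other 4 genes, and 1 of the 5 members had every KO library below both WT libraries, where 6.98% of all genes tested did. That 1 is the gene for which the family was chosen. No member had every KO library above both WT libraries (7.85% of all genes tested). By limma no member passed an adjusted p of 0.05, as for nearly all genes (0.00672% of genes called). The 4 intervals do not exclude a moderate fall or rise, so they do not show that these genes are alike in both genotypes. All 4 log2 fold changes were above 0, as were 52.9% of those of all genes tested, and their median with Cavin2 included was 0.22, against 0.01 over all genes tested. That sign rests on single libraries: without WT replicate 1 Cavin1 was at -0.32, Cavin3 at -0.12 and the median of the 5 at -0.12, without KO replicate 2 Cavin1 was at -0.06, and without KO replicate 3 Cav2 was at -0.10. Without KO replicate 1 the median of the 5 was 0.55.

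**Figure D2:**
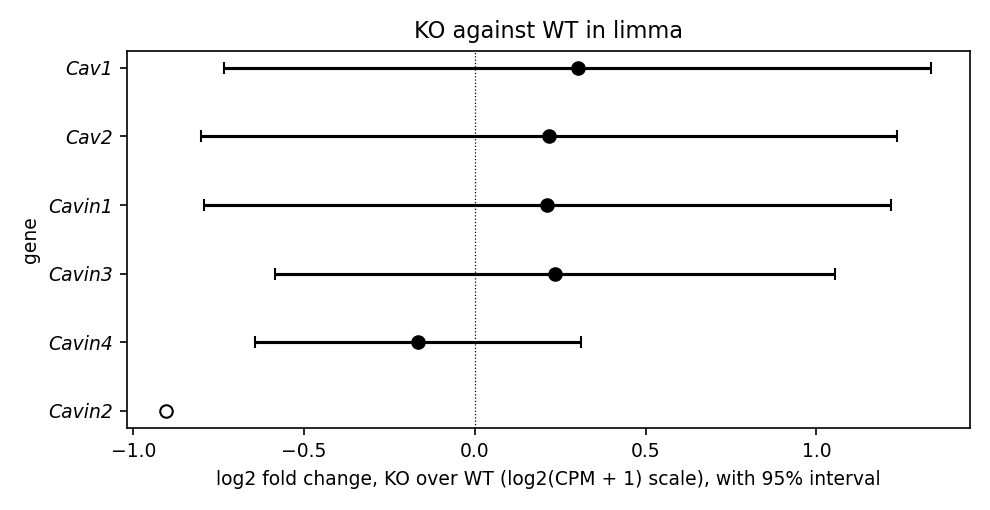
KO over WT log2 fold change on the log2(CPM + 1) scale (horizontal axis) for the 5 genes and the muscle cavin Cavin4, with 95% limma intervals. Cavin2, which was chosen for its low level, is an open point without an interval at -0.91, and the other intervals all include 0.

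Inside each library Cavin2 was compared with the other members, a ratio that no scaling of a library can change. The Cavin2 to Cavin1 ratio was 2.86% and 1.47% (WT) and 0.738%, 0.425% and 0.537% (KO). The Cavin2 to Cav1 ratio was 147% and 119% (WT) and 80.9%, 22.7% and 19.6% (KO), so Cavin2 had more reads than Cav1 in both WT libraries and fewer in every KO library. KO replicate 1, where Cav1 was low too, gave the least separated value. The mean log2 ratio of Cavin2 to another member was lower in KO by 2.00 for Cav1, 1.91 for Cav2, 1.89 for Cavin1 and 1.98 for Cavin3, which is 3.71-fold to 4.00-fold lower. For each of the 4 genes every KO library was below both WT libraries. Since Cavin2 was picked for its low level, these differences carry no test.

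**Figure D3:**
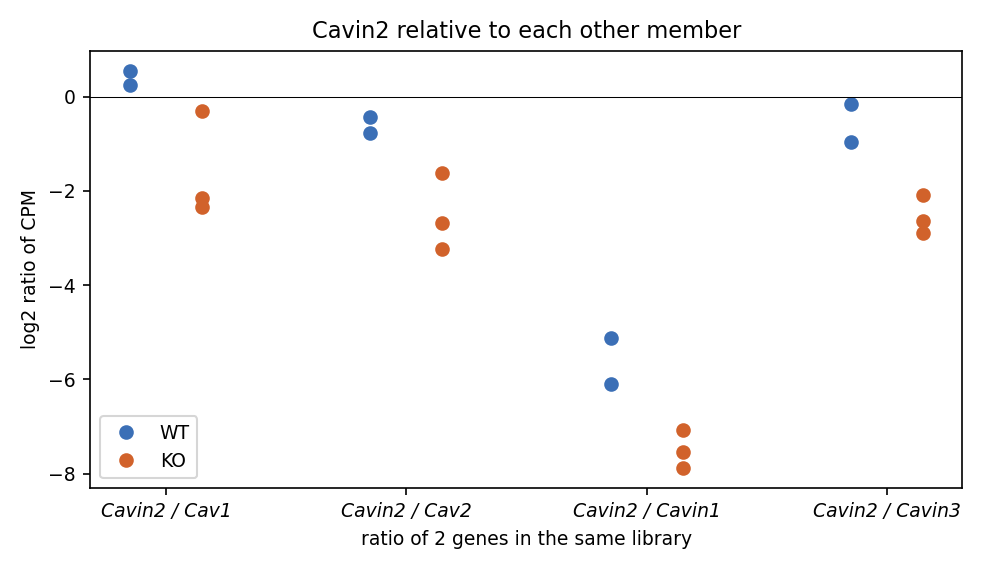
The log2 ratio of Cavin2 to each other member within a library (vertical axis), 1 point per library, WT in blue and KO in orange. The KO points lie below the WT points for all 4 ratios, nearest for Cav1, where KO replicate 1 is at -0.31 and the lower WT library at 0.25.

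Per kilobase of annotated exons, the place of Cavin2 in the order of levels differed between the genotypes. In WT the mean level was 30.9 ± 15.6 CPM per kb for Cavin1, 1.98 ± 0.87 for Cavin3, 0.979 ± 0.223 for Cav2, 0.696 ± 0.039 for Cavin2 and 0.472 ± 0.096 for Cav1 (SD, n = 2). In KO it was 35.6 ± 14.3 CPM per kb for Cavin1, 2.47 ± 0.99 for Cavin3, 1.31 ± 0.75 for Cav2, 0.737 ± 0.469 for Cav1 and 0.219 ± 0.035 for Cavin2 (SD, n = 3). The WT libraries did not overlap between neighbours in that order, whereas in KO the ranges of Cavin3 and Cav2, of Cav2 and Cav1, and of Cav1 and Cavin2 overlapped. Cavin1 supplied 90.7% to 93.2% of the summed cavin level per length in every library. Cavin2 supplied 3.04% and 1.60% (WT) and 0.806%, 0.465% and 0.585% (KO). Cav1 made up 28.2% to 39.9% of the 2 caveolins per length over the 5 libraries, with WT (32.9% and 32.2%) inside the KO range.

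The muscle members of both families were compared as well. Cavin4, the cavin of heart and skeletal muscle, stood at 1.67 and 1.12 CPM (WT) and 1.53, 1.03 and 0.85 CPM (KO), with a log2 fold change of -0.17 and an interval from -0.65 to 0.31 (adjusted p = 1.00, limma). Its low libraries were not those of Cavin1, since WT replicate 1 and KO replicate 1 were its highest. Cav3, the muscle caveolin, had 1 read in WT replicate 1 and none elsewhere, which is not a detectable level at this depth (3 reads correspond to 0.0639 to 0.141 CPM).

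The members divided by how they varied from library to library. Each level was expressed as a percentage of the gene's own WT mean. In KO replicate 1 this was 41.8% for Cav1, 51.5% for Cav2, 67.1% for Cavin1, 70.4% for Cavin3 and 25.9% for Cavin2. In KO replicates 2 and 3 the first 4 genes lay between 119% and 223%, while Cavin2 lay at 35.3% and 33.4%. All 5 members were lower in WT replicate 1 than in WT replicate 2 and lower in KO replicate 1 than in the other KO libraries, an order chosen after the values were seen and shared by 22% of all genes tested. For Cavin2 the step within a genotype was small, 1.08-fold between the WT libraries. Its Poisson intervals overlapped within WT and within KO, so its place in this order is not resolved from counting error.

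**Figure D4:**
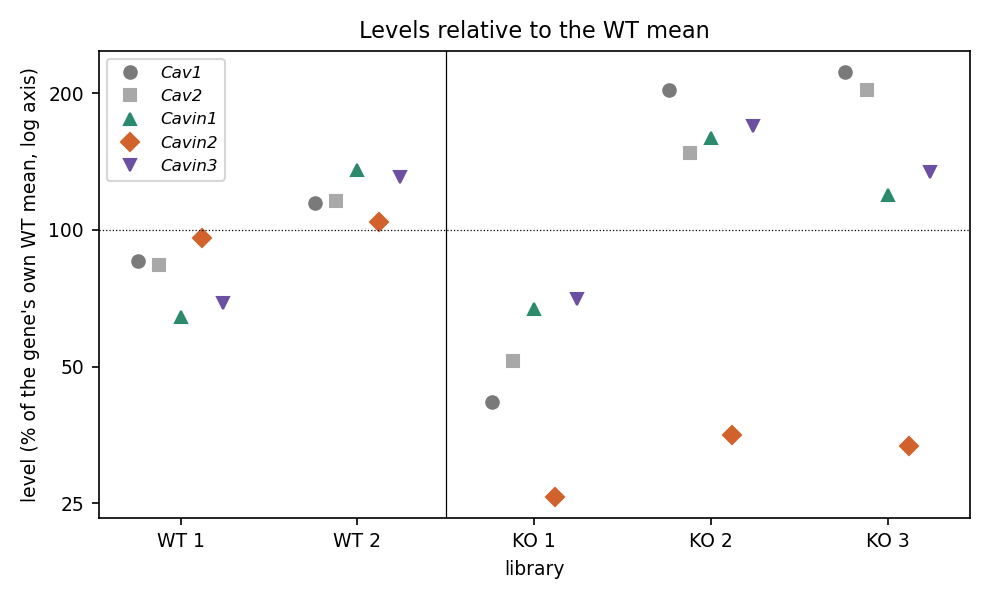
Level of each gene in each library as a percentage of its own WT mean (log axis). Cavin2 (diamonds) is between 25.9% and 35.3% in all 3 KO libraries, and the other 4 genes are below 100% in KO replicate 1 and above it in KO replicates 2 and 3.

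Likeness of pattern was measured as the root mean square difference of log2(CPM + 1) profiles, each centred on its own mean over the 5 libraries, among 13018 other genes averaging at least 1 CPM. For Cav1 the closest gene was Vav3 (0.05), a guanine nucleotide exchange factor gene, followed by Cxadr and Dmd (0.08 and 0.09). Cav2 ranked 9 for Cav1, and Cav1 ranked 4 for Cav2 (0.11 in both directions), whose closest genes were Pdlim5, Vav3 and Apol8. For Cavin1 the closest were Krt23, Arsj and Col8a2, a collagen chain gene, and Cavin3 ranked 13 (0.14). For Cavin3 they were Pld2, Nod1 and Gstt1, and Cavin1 ranked 70. Cavin2 ranked between 11223 and 11708 for the 3 members Cav1, Cav2 and Cavin1, and 12152 for Cavin3. With 5 libraries these ranks describe the libraries and show no shared control.

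The genes closest to Cavin2 were lower in every KO library too, as the measure picks for. Cers4, a ceramide synthase gene and the closest at 0.07, stood at 14.8 and 16.8 CPM (WT) and 7.01, 8.36 and 9.12 CPM (KO). Adgrf5, an adhesion receptor gene (0.10), stood at 11.6 and 10.3 CPM (WT) and 5.52, 6.08 and 5.46 CPM (KO). Slc1a1, a glutamate transporter gene (0.11), stood at 1.76 and 1.51 CPM (WT) and 0.47, 0.69 and 0.61 CPM (KO).

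Other genes that shape or cut the caveola neck were not low in KO with Cavin2. Of 11 such genes 10 were tested, 9 had a log2 fold change above 0, and none was called by limma (0.00672% of all genes). None had every KO library below both WT libraries (6.98% of all genes tested) or above both (7.85%). With 10 genes, a count of 0 is near those shares. The median was 0.15, and 0.00 without WT replicate 1, 0.03 without KO replicate 2 and 0.28 without WT replicate 2. Ehd2, the ATPase that rings the caveola neck, stood at 13.8 and 29.4 CPM (WT) and 17.4, 35.7 and 24.9 CPM (KO), with the same low libraries as Cavin1. Flna, a filamin gene that ties the membrane to actin, had a log2 fold change of 0.23 (standard error 0.24), Ror1 0.18 (0.23) and Ehd1 0.18 (0.18).

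Genes for receptors, channels and kinases that are found in caveolae or bind the coat were mixed. Of 18 genes 17 were tested, 7 above 0 and 10 below, with a median of -0.06 (-0.14 without WT replicate 1, and 0.02 without WT replicate 2 or without KO replicate 3). By limma none was called (0.00672% of all genes tested). Cd36, a fatty acid receptor gene chosen for the list with its low level known, stood at 12.8 and 10.6 CPM (WT) and 1.36, 2.43 and 3.48 CPM (KO). It was 1 of 3 of the 17 tested genes with every KO library below both WT libraries (6.98% of all genes tested), the others being Prkca and Trpc1. In 1 of the 17, Igf1r, every KO library was above both WT libraries (7.85% of all genes tested). Prkca, Trpc1 and Igf1r are named after their values were seen. Prkca, which encodes a kinase that Cavin2 binds, was at 36.8 and 33.0 CPM (WT) and 29.4 to 30.6 CPM (KO). Egfr had a log2 fold change of 0.57 (standard error 0.28), Kcnma1 0.55 (0.32) and Pdgfrb -0.44 (0.39).

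Targets of the mechanically controlled coactivators YAP and TAZ numbered 12 tested genes, 9 above 0, with a median of 0.15 (0.04 without KO replicate 2 and 0.37 without KO replicate 1). None was called by limma (0.00672% of all genes tested). In 1 of the 12, Ankrd1 (named after its values were seen), every KO library was above both WT libraries (7.85% of all genes tested). Ctgf stood at 39.6 and 51.3 CPM (WT) and 29.8, 103 and 90.7 CPM (KO). KO replicate 1 was the lowest library and the other KO libraries the highest, as for Cav1.

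Markers of cell types known for caveolae were mixed. The tested adipocyte markers were low in KO like Cavin2, and most smooth muscle markers were low in the same libraries as Cavin1. The endothelial sum followed neither pattern, and stroma markers were divided. In bulk RNA fewer cells of a type and less RNA per cell cannot be told apart. Adipocyte markers, a list chosen with the low Cd36 and Fabp4 already known, had 7 of 11 genes tested. In all 7 every KO library was below both WT libraries (6.98% of all genes tested), with a median log2 fold change of -0.86. Adipoq and Plin1 reached 0.5 CPM in the WT libraries only, so the filter largely fixed their direction. That count and median are therefore partly set by the filter. Among the untested markers the genotypes overlapped for Cidec, Retn and Lep, and were apart for Cfd. Plin1, Cidec, Retn and Cfd are named after their values were seen. The median was -1.81 without WT replicate 1, -1.27 without WT replicate 2, -1.71 with a pseudocount of 0.1 CPM and -1.40 among genes reaching 1 CPM in 2 libraries or more. The summed level of the list was 138 and 254 CPM (WT) and 23.3, 51.8 and 73.0 CPM (KO). Lpl, a lipase gene at 82.9 and 211 CPM (WT) and 16.6, 40.9 and 56.4 CPM (KO), carried most of that sum in every library. Fabp4, a fatty acid binding protein gene, stood at 32.8 and 23.5 CPM (WT) and 2.26, 5.65 and 8.47 CPM (KO), and Pparg, the adipocyte nuclear receptor gene, averaged 3.87 CPM in WT and 1.71 CPM in KO. The defining marker Adipoq stood at 1.44 and 0.74 CPM (WT) and 0.15, 0.25 and 0.38 CPM (KO), and Lep had 1 read in WT replicate 1 and in KO replicate 1 and none elsewhere (both named after their values were seen). No adipocyte marker was called by limma (0.00672% of all genes tested). Cd36 and Fabp4 had an FDR under 0.05 in the authors' deposited table (0.0315% of all listed genes), at 6.13e-05 (log2 fold change -2.29) and 0.0219 (-2.37). No marker of the list was at 0 in every library, and the part of these cells in the level of Cavin2 was not tested.

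Endothelial cells are the other known site of high Cavin2. Of 13 endothelial markers 7 were tested, 5 of them below 0 and 1, Tek, with every KO library below both WT libraries (6.98% of all genes tested). The summed level, 73.1 and 95.4 CPM (WT) and 95.2, 57.0 and 57.5 CPM (KO), did not separate the genotypes. It rests mostly on Emcn, Kdr and Plvap. The defining markers Pecam1 and Cdh5 stayed at or below 0.70 and 0.78 CPM, and Cldn5 was at 0 in every library other than WT replicate 2 (3 genes named after their values were seen).

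The most abundant smooth muscle markers were low in the same libraries as Cavin1 and Cavin3, and 3 pericyte or muscle markers of the list were not. All 10 were tested, 9 were above 0 and none was called by limma (0.00672% of all genes tested). None had every KO library below both WT libraries (6.98% of all genes tested) or above both (7.85%). The median was 0.39, and 0.88 without WT replicate 2. Their summed level was 708 and 1432 CPM (WT) and 746, 2302 and 2254 CPM (KO), low in WT replicate 1 and KO replicate 1. Acta2, smooth muscle actin, stood at 109 and 404 CPM (WT) and 167, 853 and 903 CPM (KO), and Tagln at 196 and 414 CPM (WT) and 190, 811 and 694 CPM (KO). With Mylk, a myosin kinase gene at 178 and 342 CPM (WT) and 183, 355 and 397 CPM (KO), they carried most of the sum. In 7 of the 10 WT replicate 1 was below WT replicate 2 and KO replicate 1 below the other KO libraries (22% of all genes tested). The other 3 were Rgs5, at 30.6 and 14.5 CPM (WT) and 18.7, 25.9 and 37.1 CPM (KO), Des, at 118 and 95.5 CPM (WT) and 123, 134 and 108 CPM (KO), and Cspg4, at 6.45 and 15.1 CPM (WT) and 15.4, 16.9 and 11.2 CPM (KO), which like Mylk are named after their values were seen. Of the markers none was at 0 in every library. Stroma and fibroblast markers had a summed level of 708 and 1425 CPM (WT) and 730, 1240 and 920 CPM (KO), again lowest in the libraries numbered 1, with 7 of 10 tested and a median of -0.02 (-0.12 without KO replicate 1 and 0.26 without WT replicate 1). That sum follows the collagen genes Col1a1, at 227 and 650 CPM (WT) and 284, 656 and 402 CPM (KO), and Col3a1, at 349 and 684 CPM (WT) and 283, 488 and 418 CPM (KO). Dcn, Meis1 and Tcf21 had the opposite order, highest within each genotype in replicate 1, with Meis1 at 51.1 and 35.8 CPM (WT) and 86.8, 39.7 and 38.6 CPM (KO). Pdgfra, a growth factor receptor gene, stood at 4.27 and 6.28 CPM (WT) and 2.15, 3.34 and 3.53 CPM (KO). It was the 1 tested gene of the 7 with every KO library below both WT libraries (6.98% of all genes tested). Col1a1, Dcn and Tcf21 are named after their values were seen. Foxd1, Tbx18 and Thy1 were too low to test. The part of these cells in the levels of the coat genes was not tested.

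The remaining marker lists had no gene called by limma (0.00672% of all genes tested). Several progenitor markers were high in WT replicate 1 and KO replicate 1, the libraries in which Cavin1 and Cavin3 were low. Cited1 stood at 15.2 and 1.40 CPM (WT) and 17.05, 4.74 and 2.73 CPM (KO), Crym at 16.9 and 2.35 CPM (WT) and 10.7, 3.34 and 2.26 CPM (KO), and Sall1, a transcription factor gene, at 81.7 and 37.0 CPM (WT) and 88.0, 49.6 and 47.9 CPM (KO). Of the 11 tested, 8 had this order, as did 28.1% of all genes tested, and its part in the levels of the coat genes was not tested. Of 12 nephron progenitor markers 11 were tested, 7 above 0 and 4 below, with a median log2 fold change of 0.09 (-0.10 without KO replicate 1 and 0.39 without WT replicate 1). In 1 of these 11 genes, Osr1, every KO library was above both WT libraries (7.85% of all genes tested). Of 10 skeletal muscle markers 5 were tested, 2 above 0 and 3 below, with a median of -0.16 (-0.42 without KO replicate 2 and -0.03 without KO replicate 1). In 1 of these 5, the myosin light chain gene Myl1, every KO library was below both WT libraries (6.98% of all genes tested). Myf5 was at 0 in every library, and the summed level ran from 8.54 CPM in KO replicate 1 to 23.0 CPM in WT replicate 2, which did not follow Cavin4. Of 10 tubule and duct markers 6 were tested, 3 above 0 and 3 below, with a median of 0.06 (-0.14 without WT replicate 1 and 0.50 without WT replicate 2). In 1 of these 6 genes, Cdh6, every KO library was above both WT libraries (7.85% of all genes tested).

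**Figure D5:**
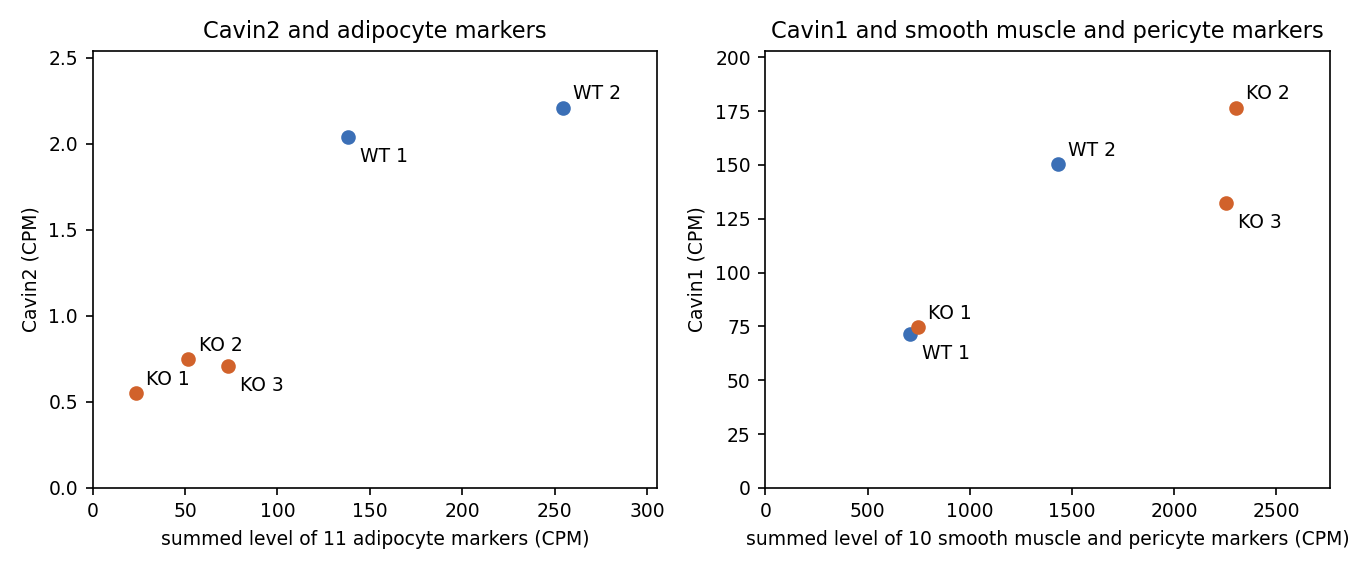
Left, Cavin2 (CPM) against the summed level of 11 adipocyte markers (CPM), most of which is Lpl. Right, Cavin1 (CPM) against the summed level of 10 smooth muscle and pericyte markers (CPM). Each point is a library, WT in blue and KO in orange. On the left both WT libraries are to the upper right of the KO libraries. Cavin2 and the adipocyte list were chosen with low KO levels known, so that separation shows no association. On the right WT replicate 1 and KO replicate 1 sit together at the lower left.

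The other 4 differences were above 0 between the libraries with Y-linked RNA and below 0 among those with Xist, where KO replicate 1 set the sign. Between the 2 libraries with Y-linked RNA the KO minus WT difference on the log2(CPM + 1) scale was 0.73 to 1.03 for Cav1, Cav2, Cavin1 and Cavin3, and among the 3 with Xist it was -0.39 to -0.09. For Cavin2 the values were -0.83 and -0.96, whose shared sign follows from libraries that do not overlap between the genotypes and says nothing on stability. Each side has a single WT library, and the WT library with Y-linked RNA is also the one with low Cavin1 and Cavin3, so these values have no test. Among the 3 with Xist, KO replicate 1 was below WT replicate 2 for Cav1, Cav2, Cavin1 and Cavin3, and KO replicate 2 above it. With a sex term in the limma fit the 4 log2 fold changes stayed above 0, from 0.16 (Cavin1) to 0.36 (Cav1).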

How the data were processed

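RNA from 5 libraries (WT 2, KO 3) was made into stranded total RNA libraries, per the labels' protocols. Alignment and counting tools listed in the submitters' processing notes are HISAT2 2.1.0 and featureCounts, besides edgeR 3.20.1, on mm10. The annotation release, strand setting and handling of multiply matching reads are not stated there. The authors deposited a signal per gene and library, CPM of an effective library size to 2 decimals, and from their edgeR comparison log2 values (a fold change and a mean level), a score (the likelihood ratio statistic), a p-value and an FDR. These last are quoted as the authors' deposited table.

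Depth was read from the steps of low values: in every library 100% of values up to 100 CPM fell no more than 0.0055 CPM from a whole read. Rounding is too coarse for the rule required before a count test, so none was run. Differences were fitted with limma 3.58.1 (R 4.3.3, trend, two-sided, Benjamini-Hochberg, threshold 0.05) on log2(CPM + 1), genotype as the term, for 14884 genes reaching 0.5 CPM in 2 or more libraries, and the steps were tested on simulated data. Intervals on levels are exact Poisson at 95%. Exon lengths and coordinates come from GENCODE (GRCm38), which holds all 5 member IDs with their versions. Promoter sequences are from RefSeq.

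The members and the 6 pathway and 7 marker lists were chosen with earlier results of these data known. Named genes were the members, Dis3l2, up to 4 genes per list averaging 1 CPM or more with the largest absolute log2 fold change, the nearest tested genes beside each member, and the 3 genes closest in pattern. Alternatives were other pseudocounts, filters and scalings, no trend, a replicate block, a sex term and leaving out each library.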

Additional observations from a re-analysis of the deposited data

How the results depend on the processing

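Cavin2 was chosen for its low KO level, and its genotypes do not overlap. Another pseudocount or filter, no trend, a replicate block, a sex term or a left-out library therefore cannot turn its sign. Its KO over WT log2 fold change stayed below 0 under all 15 alternatives, which for those settings says nothing on stability. It was -1.17 with a pseudocount of 0.5 CPM and -1.54 with 0.1 CPM, both of which shrink low genes less, and -1.16 with columns scaled to sum to 1 M without mt-Rnr1, mt-Rnr2 and Rn7sk, where levels rise above the pseudocount. Leaving out each library in turn gave -0.94 to -0.85 for Cavin2, 0.04 to 0.77 for Cav1, -0.10 to 0.66 for Cav2, -0.32 to 0.74 for Cavin1 and -0.12 to 0.59 for Cavin3. Cavin1 and Cavin3 turned negative without WT replicate 1, Cavin1 also without KO replicate 2 (-0.06) and Cav2 without KO replicate 3, and the cause was not tested. No alternative brought Cav1, Cav2, Cavin1 or Cavin3 past the threshold. Leaving out each library moved the log2 ratio difference of Cavin2 between -2.65 and -1.63 against Cav1, -2.35 and -1.55 against Cav2, -2.37 and -1.41 against Cavin1, and -2.38 and -1.57 against Cavin3.

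Over all genes limma called 1 gene (Vaultrc5, named after its values were seen), and 0 with no filter, with median-of-ratios size factors, without trend or with a sex term (1098, 412, 425 and 356 genes at an unadjusted p under 0.05). Leaving out each library gave 0 to 8 calls. With a replicate block it called 390 genes, 339 higher and 51 lower. Under the block Cav2 was at -0.10 and Cavin2, a description without a test, at -0.92. No label says what the numbers share. Across genes, deviations from the group mean correlated at 0.41 between the libraries numbered 1 and at 0.54 between those numbered 2, and KO replicate 3 has no WT partner. The deviations of the 2 WT libraries mirror each other, so WT replicate 2 with KO replicate 1 gives -0.41. The 2 correlations are therefore not independent signs of pairing. Scalings moved the median of all genes to between -0.05 and 0.04. Depth limits Cavin2 most, with 15 reads in KO replicate 3.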

Other observations

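Coats other than caveolae were measured in the same libraries. Flotillins and other raft scaffolds had 6 genes tested, 5 above 0, with a median log2 fold change of 0.17 and none called by limma (0.00672% of all genes tested). In 3 of them every KO library was above both WT libraries (7.85% of all genes tested): Flot1, at 10.6 and 11.7 CPM (WT) and 14.4, 15.8 and 12.8 CPM (KO), Erlin2 and Stom. Of 10 clathrin coat genes 9 were above 0, with a median of 0.12. In 2 of them, Dab2 and Ap2m1 (the latter named after its values were seen), every KO library was above both WT libraries (7.85% of all genes tested). Dab2, a clathrin adaptor gene, stood at 81.4 and 70.0 CPM (WT) and 85.3, 102 and 111 CPM (KO) (adjusted p = 1.00, limma), and Picalm had a log2 fold change of -0.32 (standard error 0.25).

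The nearest tested genes beside each member were compared with it. Nabp1, 163 kb beyond Cavin2, stood at 3.52 and 3.58 CPM (WT) and 2.09, 2.65 and 1.83 CPM (KO). Slc39a10, the nearest tested gene on the other side at 4396 kb, stood at 60.0 and 54.1 CPM (WT) and 36.6 to 52.9 CPM (KO). Both were lower in every KO library than in either WT library, as were 6.98% of all genes tested. Neither passed by limma (adjusted p = 1.00). Tes, 175 kb below Cav2, stood at 5.10 and 6.78 CPM (WT) and 6.88, 12.4 and 12.1 CPM (KO), and Met, 122 kb beyond Cav1, had genotypes that overlapped. Stat3, 17.2 kb from Cavin1, had a log2 fold change of -0.16 (standard error 0.16). Atp6v0a1, on the other side of Cavin1, was also lower in every KO library, at 26.15 and 33.2 CPM (WT) and 22.0 to 25.5 CPM (KO). Smpd1, beside Cavin3, stood at 16.2 and 19.3 CPM (WT) and 24.4, 35.0 and 24.4 CPM (KO). Smpd1 and Tes were higher in every KO library than in either WT library, as were 7.85% of all genes tested. Genes on the opposite strand that overlap Cav1 and Cav2 (Gm15581), Cavin2 (9330175M20Rik) or Cavin3 (Gm45667) were at 0, at most 0.04 and at most 0.13 CPM.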
